A study of Vitis vinifera with 36 samples.

Results

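The berries of the winter crop were compared with those of the summer crop in the white cultivar “Riesling” at the stage labelled E-L 38, the harvest stage of the modified Eichhorn-Lorenz scale. The comparison rests on 6 RNA-seq libraries of 36, chosen by their labels for cultivar, crop and stage: 3 of summer cropping and 3 of winter cropping. All of them were grown in 2014 in southern China under a rain shelter, on vines that bore both crops after pruning and forcing with hydrogen cyanamide. The summer crop was forced in mid-February and ripened from mid-June, and the winter crop was forced in August on the same system and was harvested in early January. The RNA came from deseeded berries (whole pericarp), from a sub-sample of 50 berries for each of 3 biological replicates. The other libraries are “Riesling” at E-L 35 (onset of veraison) and E-L 36 (end of veraison), and “Cabernet Sauvignon” (“CS”), a black cultivar, at all 3 stages in both crops.

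From veraison on, a grape berry softens, takes up sugar, loses acids and, in black cultivars, turns red, while it stops the synthesis of flavan-3-ols and tannins typical of the green berry. Abscisic acid is the hormone most closely tied to the onset of this program in grape, a fruit without the ethylene burst of climacteric fruits, and auxin delays it. Light, temperature and UV-B act on phenylpropanoids and flavonoids besides, so that a gene can differ between crops because the berries were at another point of ripening or because the season acted on it.

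The depth of the 6 libraries was similar, with totals of 9264590 to 10982724 expected counts, and 3 counts equal 0.273 to 0.324 CPM (counts scaled to library depth). Replicates of a crop had a Pearson r of 0.9876 to 0.9928 across genes on the log2 scale of FPKM, fragments per kilobase of transcript scaled to library depth. The 10 most abundant genes held 11.27% to 11.55% of the counts in the summer libraries and 14.56% to 15.51% in the winter libraries. Between 23.79% and 24.92% of the listed genes had a fractional count, from reads shared among copies. Values of single members of tandem families such as *VviSTS* and *VviPAL* are therefore uncertain.

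The stage label of the summer libraries was examined first, with a ripening index built from “CS” libraries alone. It averages the z-scores (log2 CPM) of 238 genes whose level rose with ripening in both “CS” crops (E-L 38 over E-L 35) and subtracts the average of 797 genes whose level fell. The summer libraries of “Riesling” labelled E-L 38 had an index of −0.33, −0.31 and −0.43, and the winter libraries had 1.82, 1.85 and 2.01. The groups did not overlap, and the gap of 2.25 gave p = 0.1 in an exact two-sided permutation test, the smallest value that 3 libraries against 3 allow. With index genes chosen in the “CS” summer crop alone the gap was 1.35. The summer libraries lay below those of “Riesling” summer at the label E-L 36, which had 0.25, −0.11 and 0.62. The winter libraries at E-L 36 had −0.52, −0.58 and −0.34, so that their range overlapped that of the summer libraries labelled E-L 38 (exact p = 0.2). In “CS”, the mean ± SD at E-L 38 was 1.65 ± 0.29 in summer and 2.46 ± 0.14 in winter (n = 3 each). On this scale the summer berries labelled E-L 38 lay nearer to the E-L 36 libraries than to “CS” at E-L 38, against their label. A season effect and a difference in ripeness cannot be told apart from these 6 libraries alone.

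**Figure D1:**
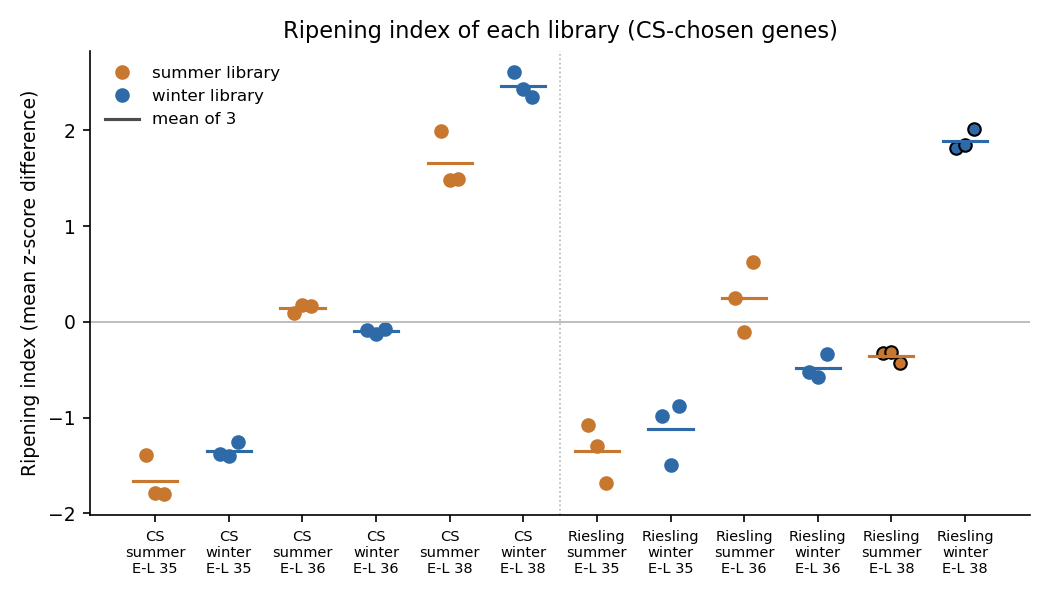
Ripening index (mean z-score of genes rising with ripening in “CS” minus that of genes falling with it) of each of the 36 libraries, grouped by cultivar, crop and stage label; points are libraries, bars are means of 3, and black rims mark the 6 libraries compared. The summer libraries of “Riesling” labelled E-L 38 lie between −0.43 and −0.31 and the winter libraries between 1.82 and 2.01.

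Of 20183 genes tested, 5626 (27.9%) were called at E-L 38: their levels differed by 2-fold or more and their adjusted p did not exceed 0.01 (edgeR quasi-likelihood test, Benjamini-Hochberg adjustment). Winter berries had 2385 genes (11.8%) higher and 3241 (16.1%) lower, and the median over all genes was −0.01 on the log2 scale. At least 8-fold differences were found for 408 of the higher and 689 of the lower genes. In 230 of the higher genes no summer library had more than 3 counts, and in 325 of the lower genes no winter library had. The same comparison in “Riesling” called 7.13% of the genes at E-L 36 and 10.0% at E-L 35 (5.54% higher and 4.48% lower). The season effect of “Riesling” differed between E-L 38 and E-L 36 for 40.8% of the genes (interaction term).

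To separate ripening from season, genes were sorted by their behaviour in the 18 “CS” libraries, none of which is part of the comparison. The 238 ripening-up and 797 ripening-down genes are those of the index, called in 1 direction with ripening in both crops. The “CS” summer crop had 9.54% of all genes called with ripening (2.96% higher and 6.57% lower at E-L 38) and the winter crop 20.8% (7.72% and 13.1%). Season-up (710 genes) and season-down genes (768) were called in 1 direction in at least 2 of the 3 winter against summer comparisons of “CS” and were in neither ripening class. Those comparisons had 7.29% of all genes higher and 9.90% lower at E-L 38, 6.50% higher and 5.82% lower at E-L 36, and 10.4% called at E-L 35 (4.54% and 5.83%). A gene that met both the ripening and the season rule counts as a ripening gene. The 17670 genes left over are called unclassified below.

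The ripening classes are the genes of the index, so their counts restate its gap gene by gene and are a description. Of the ripening-up genes, 122 (51.3%) were higher in winter and 11 (4.6%) lower, against 11.8% and 16.1% of all genes, and of the ripening-down genes 455 (57.1%) were lower and 49 (6.1%) higher. Their median log2 fold changes were 1.53 and −1.60, or 1.22 and −1.46 with genes at or under 3 counts in a group set to their bound. At E-L 36, where the index of winter berries lay 0.74 below that of summer berries (exact p = 0.1), the counts of these genes turned with it, as the index fixes: 211 of the ripening-down genes were higher in winter and 15 lower, against 4.65% and 2.48% of all genes. For 94 ripening-down genes the call was lower in winter at E-L 38 and higher at E-L 36.

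Most season genes kept their direction from “CS” at E-L 38. Of the season-up genes, 443 (62.4%) were higher in “Riesling” winter berries at E-L 38 and 14 (2.0%) lower, with a median log2 fold change of 1.87. Of the season-down genes, 560 (72.9%) were lower and 11 (1.4%) higher, with a median of −1.77. The shares of all genes at E-L 38 were 11.8% higher and 16.1% lower. The shares of the season classes hardly moved among genes without a stage call in either “CS” crop, with 258 of 410 season-up genes higher and 273 of 380 season-down genes lower. The medians of the season-up and season-down genes were smaller at the other stages, with 0.57 and −0.21 for E-L 36 and 0.96 and −0.54 for E-L 35. At E-L 36 21.5% of the season-up genes were higher and 2.0% lower, and 10.3% of the season-down genes were lower and 2.5% higher. Of all genes, 4.65% were higher there and 2.48% lower. The season classes rest in part on “CS” at E-L 38, where the index of winter berries was 0.81 above that of summer berries.

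Together, 577 of the 5626 called genes (10.3%) were ripening genes called with their class and 1003 (17.8%) were season genes called with their class. Ripening genes called against their class made up 1.1% and season genes called against theirs 0.4%, and 3961 genes (70.4%) were unclassified. Across all 20183 genes the season effect at E-L 38 in “Riesling” had a Pearson r of 0.55 with the season effect at E-L 38 in “CS” and of 0.20 and 0.47 with the ripening change (E-L 38 over E-L 35) of “CS” summer and winter. At E-L 36 these values were 0.16, −0.39 and −0.13. They are descriptions across genes, which are not independent replicates, and the points share the normalization.

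**Figure D2:**
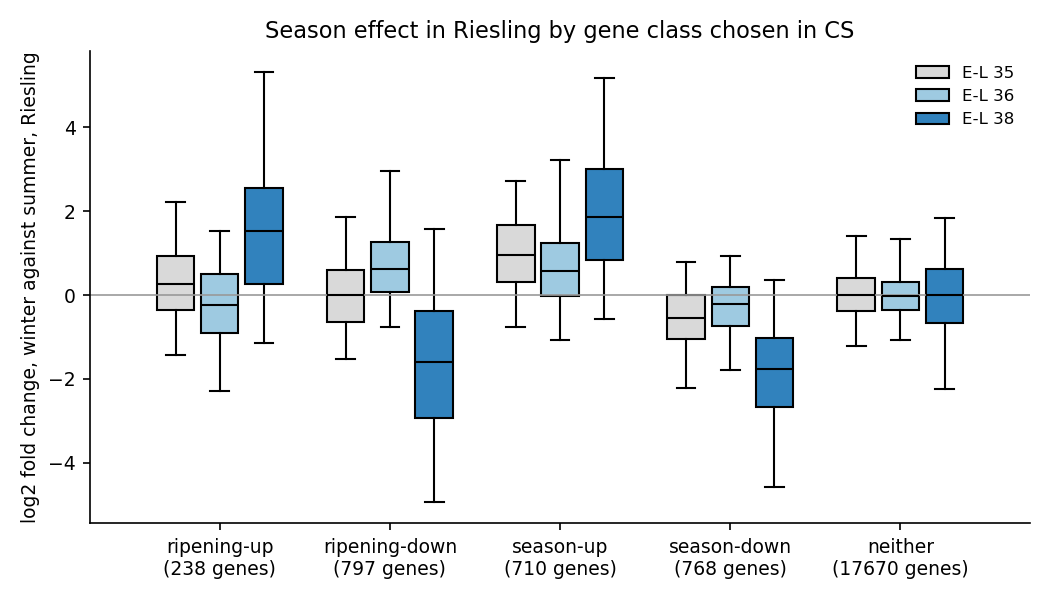
Log2 fold change of winter against summer in “Riesling” at each of the 3 stage labels for the 4 gene classes chosen in “CS” and for all other genes; boxes span the quartiles with the median as a line, and whiskers run from the 5th to the 95th percentile of genes. The medians at E-L 38 are 1.53, −1.60, 1.87 and −1.77 for the ripening-up, ripening-down, season-up and season-down genes, and the ripening classes change sign at E-L 36, with −0.23 and 0.61.

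Another reading used the sign of the ripeness gap. Winter berries were behind summer berries on the index at E-L 36 in both cultivars (by 0.74 in “Riesling” and by 0.24 in “CS”) and ahead at E-L 38 (by 2.25 and 0.81). A gene with 1 direction at both stages did not change sign with the index. The index is a mean over genes, and whether single genes ripened on another course was not tested. Without the 6 libraries, 118 genes were higher in winter in “CS” at both stages and in “Riesling” at E-L 36, and 84 of them (71.2%) were also higher at “Riesling” E-L 38, with 2 lower. Of 68 genes that were lower in the same 3 comparisons, 51 (75.0%) were lower and 2 higher. This selection was made after the results had been seen. Of all genes, 11.8% were higher and 16.1% lower at “Riesling” E-L 38. Among the 118 genes 28 were ripening-down and 1 ripening-up, and among the 68 genes 5 and 1. Without the condition at “Riesling” E-L 36 the shares were similar, with 328 of 480 genes (68.3%) higher and 469 of 599 (78.3%) lower. Among the genes with a name, *VviMYBA2*, *VviMYBA3*, *VviNCED6*, one *VviPAL* (VIT_213s0019g04460) and one *VviPP2C* (VIT_216s0050g02680) were higher in all 4 comparisons and one *VviAUX/IAA* (VIT_211s0016g03540) was lower in all 4. The other named genes of these sets had no call at “Riesling” E-L 38: *VviCHS3* (log2 fold change 0.84), a second *VviPAL* (VIT_206s0004g02620, 0.74) and *VviNCED3* (−0.94) among the 118, and *VviF3H* VIT_202s0025g02960 (−1.01) and *VviFLS5* (0.38) among the 68. Within “Riesling” alone, 212 genes were higher and 126 lower at both stages, 200 were lower at E-L 38 and higher at E-L 36, and 76 were the reverse. Of the genes higher at E-L 36, 22.6% were thus higher and 21.3% lower at E-L 38. Of those lower at E-L 36, 25.1% were lower and 15.2% higher at E-L 38.

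The summer libraries labelled E-L 38 also differed from those labelled E-L 36. In “Riesling” summer 5.78% of all genes were higher and 6.12% lower at the label E-L 38, and in winter 5.80% were higher and 13.1% lower. Genes called in the main comparison share its libraries and are set beside all genes called in the same direction, with no test. Of the 443 season-up genes called higher in winter, 224 were lower in summer at the label E-L 38 than at the label E-L 36, as were 698 of all 2385 genes called higher. Of the 560 season-down genes called lower, 224 were higher there, as were 936 of all 3241. In winter, 120 of the 443 rose between these labels, as did 779 of the 2385, and 295 of the 560 fell, as did 1678 of the 3241. Without regard to the call at E-L 38, 312 of the 768 season-down genes (40.6%) fell in winter and 22 (2.9%) rose. The shares of all genes were 13.1% and 5.80%, so the season-down class also moved with the stage label in “Riesling” winter. Of the 710 season-up genes 125 (17.6%) rose and 86 (12.1%) fell. From the summer label E-L 36 to E-L 38, 264 season-up genes (37.2%) fell and 12 (1.7%) rose. Of the season-down genes, 231 (30.1%) rose there and 24 (3.1%) fell, against 5.78% and 6.12% of all genes. Both season classes thus also moved between the summer labels. The winter libraries at E-L 36, whose index was close to that of the summer libraries labelled E-L 38, gave the nearest match on the index. Set against them, the summer libraries labelled E-L 38 gave 403 of the 710 season-up genes higher in winter and 5 lower, against 8.26% and 5.78% of all genes. Of the 768 season-down genes 335 were lower and 19 higher. Of the ripening-up genes 47 were higher and 30 lower, and of the ripening-down genes 179 (22.5%) were higher and 86 (10.8%) lower, so that the ripening-down genes were not balanced in this comparison. That comparison shares its summer libraries with the main one and is given beside it as values only.

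The 216 genes with a name were placed in 14 lists by function, and 212 of them were tested, of which 51 were higher in winter and 40 lower. Their share of calls was 42.9%, against 27.9% of all genes (11.8% higher and 16.1% lower, beside which each list count below is to be set), but part of the lists had been picked by the study on these samples, so the share is not independent of them. The median log2 fold change of the list genes was 0.65. The groups did not overlap for 159 of the 212 genes. Called list genes were picked for naming among these, so a lack of overlap stated for them below restates the choice.

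**Figure D3:**
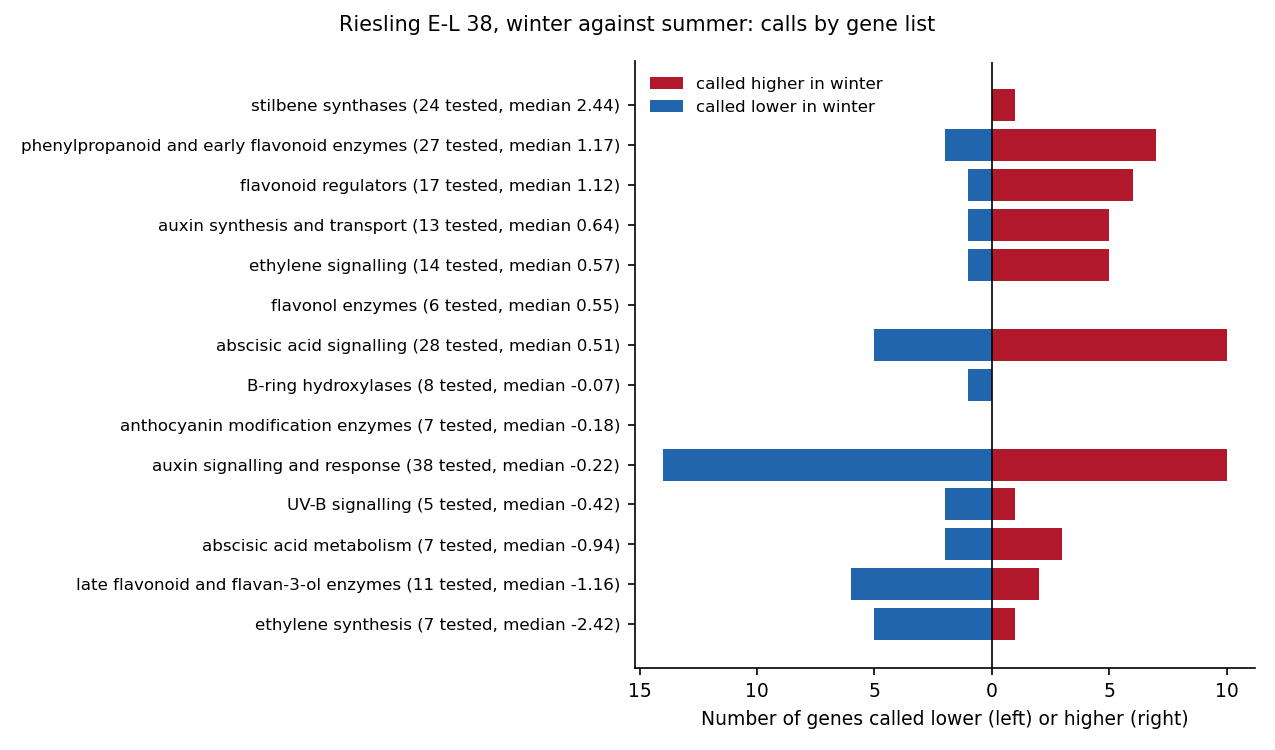
Number of genes called lower (left, blue) or higher (right, red) in winter than in summer berries of “Riesling” at E-L 38 in each of 14 lists, ordered by the median log2 fold change of the list, which stands with the number tested at the left. Ethylene synthesis has 5 of 7 genes lower, auxin signalling and response has 10 higher and 14 lower of 38, and flavonol and anthocyanin modification enzymes have none called.

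The regulators of the berry colour locus on chromosome 2 were among the genes with the widest gaps. *VviMYBA1* and *VviMYBA2* switch on anthocyanin synthesis in black berries, and white cultivars are known to carry inactive alleles of them. *VviMYBA2* (VIT_202s0033g00390; 12X V2, 2:14179728-14180733) had FPKM values of 0.58, 0.33 and 0.78 in summer and of 91.5, 85.2 and 84.5 in winter. The groups were far apart, the log2 fold change being 7.21 ± 0.75 (SE; adjusted p = 2.75e-09). *VviMYBA3* (VIT_202s0033g00450; 2:14308288-14309480) had 0.00, 0.21 and 0.12 in summer and 15.9, 17.8 and 14.0 in winter, at least 54.4-fold higher when the summer level is set to 3 counts a library. *VviMYBA1* (VIT_202s0033g00380; 2:14179439-14179684), a short model next to that of *VviMYBA2*, was at 0 in every summer library and at 35.6, 37.0 and 35.8 in winter, at least 27.7-fold higher. A second tested gene listed as *VviMYBA1* was not called (log2 fold change 1.31). The 3 genes with FPKM values here are season-up genes without a stage call in “CS”, and part of their reads were shared among copies. They were already high in winter at E-L 36 (72.9 to 85.4 for *VviMYBA2*), and in summer they were present at the label E-L 36 (7.17 to 42.8) and nearly absent at the label E-L 38. The season effect at E-L 38 was larger in “Riesling” than in “CS” for each of them, by 5.65 on the log2 scale for *VviMYBA2* (adjusted p = 6.51e-05), against 13.4% of all genes whose effect differed between the cultivars.

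Among the other flavonoid regulators, *VviMYB15* (VIT_205s0049g01020), an activator of stilbene synthases, was 8.23, 8.45 and 11.3 FPKM in summer and 59.4, 64.0 and 43.8 in winter. It belonged to the season-up genes, and the groups did not overlap (log2 fold change 2.63 ± 0.33, adjusted p = 1.03e-07). *VviMYB4a* (VIT_203s0038g02310), a repressor of the pathway and the most abundant regulator without a call, had a mean of 45.4 in summer and 34.8 in winter (adjusted p = 0.0305). In the list as a whole 6 of 17 tested regulators were higher and 1 lower, with a fitted median of 1.12, or 0.00 with genes at or under 3 counts set to their bound. The lower one, named here after its values were seen, was *VviMYBPA1* (VIT_215s0046g00170), an activator of flavan-3-ol synthesis and a season-down gene, with 2.59, 2.73 and 2.93 in summer and 0.25, 0.49 and 0.59 in winter.

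The first enzymes of the phenylpropanoid pathway turn phenylalanine into the precursor of flavonoids and stilbenes. Of 27 tested genes 7 were higher and 2 lower (33.3% called, against 27.9% of all genes), with a median log2 fold change of 1.17, although leaving out summer replicate 3 reduced the higher genes to 4. *VviCHS1* (VIT_214s0068g00920), a chalcone synthase at the entry to flavonoids, had 5.92, 6.01 and 1.95 FPKM in summer and 27.0, 27.8 and 23.6 in winter. *VviCHI* (VIT_213s0067g03820), the chalcone isomerase of the next step, had 22.4, 21.7 and 16.1 in summer and 68.2, 69.3 and 63.0 in winter. Both were season-up genes whose groups did not overlap, with log2 fold changes of 2.55 ± 0.51 (adjusted p = 8.78e-05) and 1.79 ± 0.16 (adjusted p = 1.0e-10). A flavanone 3-hydroxylase, *VviF3H* (VIT_202s0025g02960), a season-down gene without a call, had a mean of 34.1 in summer and 16.3 in winter (adjusted p = 0.0219).

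The 11 *VviPAL* genes encode phenylalanine ammonia-lyase, the first step, and 7 of them lie in a tandem cluster on chromosome 16. All 11 had a log2 fold change above 0, with a median of 2.32, and 2 were called, both season-up. VIT_213s0019g04460, outside the cluster, had 1.70, 2.10 and 1.73 FPKM in summer and 9.91, 9.56 and 7.14 in winter, with no overlap (log2 fold change 2.32 ± 0.54, adjusted p = 0.000472). VIT_216s0039g01170, inside it, had 0.78, 1.58 and 1.28 in summer and 12.5, 11.7 and 8.05 in winter (log2 fold change 3.21 ± 0.92, adjusted p = 0.0038), and its adjusted p rose to between 0.0102 and 0.0207 without any of the 3 summer libraries or winter replicate 1. Summed over the family, the level was 18.4, 17.0 and 13.7 in summer and 66.4, 69.0 and 37.3 in winter, a ratio of 3.52 (exact permutation p = 0.1, the smallest possible). Winter replicate 3 was the lowest of its group and still above every summer library.

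Stilbene synthases make resveratrol from the same precursor as chalcone synthase. All 24 tested *VviSTS* genes had a log2 fold change above 0, with a median of 2.44, and their summed FPKM was 16.1, 16.1 and 20.2 in summer and 103, 110 and 38.6 in winter. The groups did not overlap, and the ratio of 4.81 gave an exact permutation p of 0.1. Single copies rarely passed: 1 of 24 was called in the fit of all libraries (6 had an unadjusted p under 0.05), and 12 in a fit of the 6 libraries alone. The called copy, VIT_216s0100g00930 (16:16408318-16409839), was at 0 in every summer library and at 4.11, 4.22 and 1.08 FPKM in winter, at least 14.8-fold higher. The most abundant copy, VIT_216s0100g01170, had a mean of 2.33 in summer and 18.3 in winter (adjusted p = 0.0291). The summer libraries at the label E-L 36 were the most uneven in this family, with sums of 16.3 to 1109, and they entered the estimate of the spread in the fit of all libraries.

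Enzymes of the late flavonoid pathway, which lead to anthocyanidins and to the flavan-3-ols of tannins, were mostly lower in winter. Of 11 tested genes 6 were lower and 2 higher, with a median log2 fold change of −1.16. Dihydroflavonol reductase is encoded by 6 *VviDFR* genes, of which 4 were lower, and they fell into different classes. VIT_202s0025g01260 (2:1221630-1224048), a ripening-down gene, had 5.86, 6.35 and 7.08 FPKM in summer and 0.00, 0.00 and 0.10 in winter, at least 43.4-fold lower. It was also lower in winter at “CS” E-L 35, E-L 36 and E-L 38 (log2 fold change −2.69, −4.96 and −4.57), besides its change with ripening. VIT_219s0014g04980 (19:5318062-5327582), a season-down gene, had 61.9, 57.9 and 80.5 in summer and 9.52, 9.63 and 8.63 in winter (log2 fold change −2.79 ± 0.19, adjusted p = 7.11e-13). Its level in winter at E-L 36, 46.3 to 66.2, was close to that of the summer berries. VIT_215s0048g01000 went against its class: it was season-up in “CS”, where it was higher in winter at E-L 38 by 1.67 on the log2 scale, but had 6.58, 7.44 and 9.21 in “Riesling” summer and 0.48, 0.46 and 0.78 in winter. The season effects of the cultivars differed by −5.36 (adjusted p = 6.73e-09). The genes of this list that were higher, chosen after their values were seen, were *VviDFR* VIT_218s0001g12800, with 28.2 to 30.1 in summer and 63.9 to 69.7 in winter, and *VviLDOX* VIT_202s0025g04720, with means of 11.3 and 27.8.

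*VviLAR2* (VIT_217s0000g04150), a leucoanthocyanidin reductase that makes flavan-3-ols, had 14.0, 13.1 and 15.4 FPKM in summer and 4.08, 4.02 and 4.44 in winter (log2 fold change −1.62 ± 0.33, adjusted p = 0.000124). Its direction was the opposite at E-L 36 (log2 fold change 2.73), and it belonged to no class. Its model overlaps another gene, as does that of *VviUFGT* (VIT_216s0039g02230), the glucosyltransferase that stabilizes anthocyanidins, which had 10.5, 10.5 and 10.5 in summer and 9.05, 10.2 and 7.63 in winter (adjusted p = 0.429). None of the 7 genes of anthocyanin modification was called by edgeR, with 1 at an unadjusted p under 0.05, 1 lower by DESeq2 and 2 lower in a fit of the 6 libraries alone. *VviLDOX* (VIT_208s0105g00380), an anthocyanidin synthase, had a mean of 27.4 in summer and 14.1 in winter (log2 fold change −0.90, short of the fold limit, which it passed without summer replicate 3 at −1.07).

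The B-ring hydroxylases decide how many hydroxyl groups a flavonoid carries. *VviF3′H* (VIT_203s0063g01690), a ripening-down gene, had 5.96, 6.79 and 6.24 FPKM in summer and 0.88, 0.89 and 0.99 in winter, with no overlap (log2 fold change −2.74 ± 0.24, adjusted p = 9.3e-11). In “CS” at E-L 38 its log2 fold change was −0.03, and the difference between the cultivars was −2.70 (adjusted p = 3.41e-06). The second copy, VIT_209s0002g01090, was 1.73, 1.24 and 1.12 in summer and 1.53, 1.53 and 1.39 in winter (adjusted p = 0.703). None of the 6 *VviF3′5′H* genes was called, and none of the 6 libraries had more than 5.88 counts of any of them. Flavonol enzymes had no call either, by edgeR, with 2 of 6 at an unadjusted p under 0.05 and 1 called in the fit of the 6 libraries alone. *VviFLS5* (VIT_218s0001g03430), a flavonol synthase and the most abundant of them, was 51.6, 51.5 and 46.4 in summer and 60.9, 62.8 and 67.3 in winter (log2 fold change 0.38, adjusted p = 0.0582), whereas it was lower in winter in “CS” by −1.48 on the log2 scale, a difference of 1.86 between the cultivars (adjusted p = 4.52e-06).

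Of the UV-B pathway, in which the photoreceptor UVR8 releases the factor HY5 from degradation by COP1, 1 of 5 genes was higher and 2 were lower. *VviHY5* (VIT_204s0008g05210) had 43.1, 39.5 and 42.7 FPKM in summer and 11.2, 13.5 and 15.2 in winter (log2 fold change −1.40 ± 0.17, adjusted p = 5.48e-08). It was a season-down gene, lower in winter at all 3 stages in “CS”. Its level in summer at the label E-L 36, 13.0 to 16.5, was near that of the winter berries. *VviUVR1* (VIT_207s0031g02560), the receptor, had 24.1, 24.0 and 25.3 in summer and 9.10, 9.80 and 9.07 in winter (log2 fold change −1.34 ± 0.13, adjusted p = 7.99e-10). *VviCOP1-1* (VIT_212s0059g01420) had 4.12, 3.57 and 4.53 in summer and 12.2, 10.5 and 10.3 in winter (log2 fold change 1.49 ± 0.10, adjusted p = 1.01e-12), and *VviCOP1-2* (VIT_210s0523g00030) stayed under the fold limit at 0.56. *VviUVR1* and *VviCOP1-1* belonged to no class. Neither had a call in “Riesling” at E-L 36 (log2 fold change 0.22 and −0.19) or at E-L 35 (0.18 and 0.51). In “CS”, *VviUVR1* was lower in winter at E-L 36 (−1.48) and fell with ripening in the winter crop (−1.26).

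**Figure D4:**
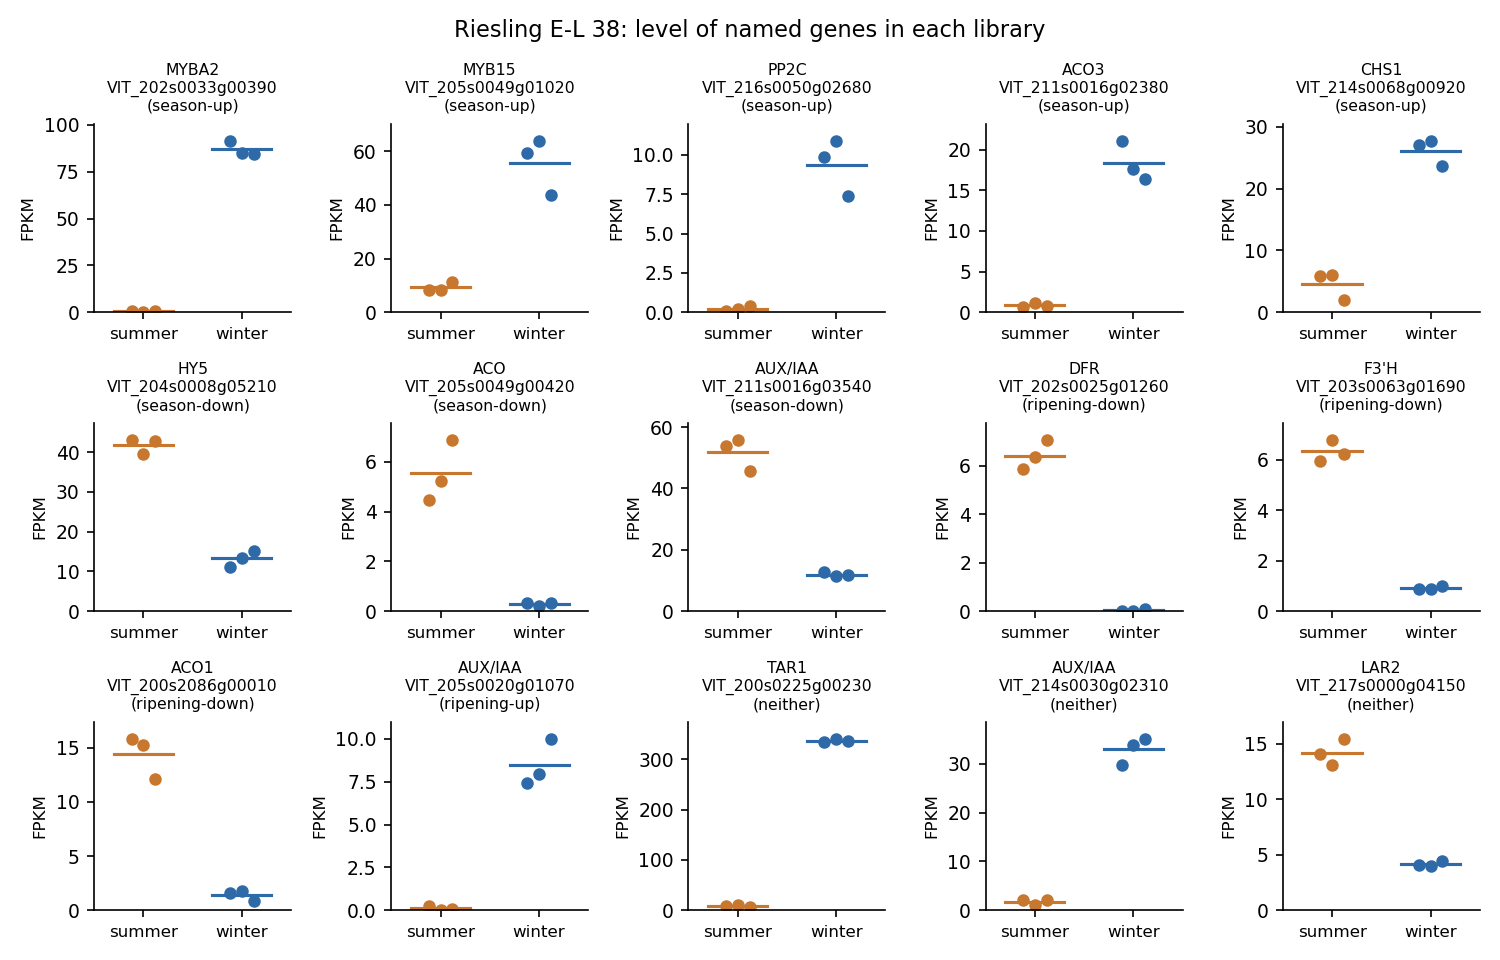
FPKM of 15 named genes in the 3 summer (orange) and 3 winter (blue) libraries of “Riesling” at E-L 38, each panel on its own linear scale from 0; points are libraries and bars are means of 3, and the class chosen in “CS” stands in brackets. The genes were picked among called genes whose groups do not overlap, so the lack of overlap in every panel restates that choice. Values run from *VviMYBA2* with 0.33 to 0.78 against 84.5 to 91.5 to *VviLAR2* with 13.1 to 15.4 against 4.02 to 4.44.

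Genes of abscisic acid synthesis and breakdown were split, with 3 of 7 higher and 2 lower. *VviNCED6* (VIT_205s0051g00670), a 9-cis-epoxycarotenoid dioxygenase of the committed step, had 0.26, 0.55 and 0.31 FPKM in summer and 1.68, 1.74 and 2.99 in winter (log2 fold change 2.56 ± 0.40, adjusted p = 2.56e-06). The ABA 8′-hydroxylase gene (VIT_202s0087g00710), which inactivates the hormone, had 2.37, 2.06 and 1.39 in summer and 7.19, 6.26 and 6.24 in winter (log2 fold change 1.80 ± 0.48, adjusted p = 0.0019, and 0.0144 without summer replicate 3). Both were season-up genes and higher in winter at E-L 36 too. The genes between NCED and the hormone were lower: xanthoxin dehydrogenase (VIT_213s0019g01010) had 47.3, 40.2 and 50.0 in summer and 11.7, 14.4 and 14.7 in winter, and abscisic aldehyde oxidase (VIT_218s0041g02410) had 1.80, 1.23 and 1.60 in summer and 0.25, 0.57 and 0.26 in winter. Their log2 fold changes were −1.70 ± 0.19 (adjusted p = 1.15e-08) and −2.03 ± 0.36 (adjusted p = 1.71e-05), without overlap of the groups. At E-L 36 abscisic aldehyde oxidase was higher in winter (log2 fold change 1.69), and xanthoxin dehydrogenase had 0.66 without a call. *VviNCED3* (VIT_219s0093g00550), a ripening-down gene, was not called (log2 fold change −0.94, adjusted p = 0.0152, and −1.10 with adjusted p = 0.00914 without summer replicate 3), while it was higher in winter in “CS” by 2.50 on the log2 scale. The difference between the cultivars was −3.44 (adjusted p = 6.14e-06).

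In the signalling of abscisic acid, PYR/PYL receptors bind the hormone and block the phosphatases PP2C, which frees the kinases SnRK2. Of 28 tested genes 10 were higher and 5 lower, against 11.8% and 16.1% of all genes, and 6 of the 12 *VviPP2C* genes were higher and 1 lower. VIT_216s0050g02680, a season-up *VviPP2C*, had 0.06, 0.20 and 0.37 FPKM in summer and 9.86, 10.9 and 7.36 in winter (log2 fold change 5.47 ± 0.48, adjusted p = 1.03e-10). It had 22.9 to 29.1 in winter at E-L 36, and 10.2 to 13.3 in summer at the label E-L 36, so that the summer libraries labelled E-L 38 stood apart from all of these. VIT_202s0025g01390, another *VviPP2C*, was at 0 in summer and at 0.54, 0.88 and 1.69 in winter, at least 5.4-fold higher, but its adjusted p of 0.00499 rose to between 0.0167 and 0.0182 without any summer library or winter replicate 3. A *VviPYR/PYL* receptor (VIT_202s0012g01270) had 33.5, 34.5 and 35.6 in summer and 7.13, 10.6 and 7.77 in winter (log2 fold change −1.97 ± 0.23, adjusted p = 3.15e-08), and a *VviSnRK2* (VIT_207s0031g03210) had 7.32, 6.15 and 5.70 in summer and 1.87, 1.28 and 0.86 in winter (log2 fold change −2.19 ± 0.21, adjusted p = 9.24e-10). Neither belonged to a class. At E-L 36 this *VviPYR/PYL* gene was higher in winter (log2 fold change 1.78), with 28.2 to 32.8 FPKM in winter. The *VviSnRK2* gene had 4.53 to 5.38 in winter there and no call (log2 fold change −0.08). Of the 4 *VviPYR/PYL* genes 1 was higher and 1 lower, and of the 6 *VviSnRK2* genes 2 were higher and 3 lower. The higher receptor gene, the season-up VIT_215s0046g01050, had a log2 fold change of 1.45 (adjusted p = 3.84e-10). *VviABF* (VIT_218s0001g10450), a transcription factor of the pathway, had a mean of 40.1 in summer and 46.6 in winter (adjusted p = 0.0129).

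Ethylene synthesis was the list with the largest share of lower genes, 5 of 7, with a median log2 fold change of −2.42. *VviACO1* (VIT_200s2086g00010), an ACC oxidase of the last step and a ripening-down gene, had 15.8, 15.3 and 12.1 FPKM in summer and 1.58, 1.74 and 0.86 in winter (log2 fold change −3.30 ± 0.39, adjusted p = 2.91e-08). A pair of *VviACO* genes on chromosome 5 were season-down: VIT_205s0049g00420 had 4.47, 5.24 and 6.88 in summer and 0.31, 0.19 and 0.34 in winter, and VIT_205s0049g00390 had 22.6, 25.3 and 27.6 in summer and 5.12, 5.13 and 3.33 in winter. Their log2 fold changes were −4.23 ± 0.41 and −2.42 ± 0.17 (adjusted p = 6.06e-10 and 1.37e-12). *VviACS2* (VIT_202s0025g00360), an ACC synthase, had 7.27, 7.59 and 5.37 in summer and 0.35, 0.22 and 0.14 in winter (log2 fold change −4.73 ± 0.86, adjusted p = 2.47e-05). It had no call in “CS”, and the cultivars differed by −6.59 (adjusted p = 0.000104).

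*VviACO3* (VIT_211s0016g02380) was the exception in this list. It was season-up, with 0.64, 1.12 and 0.75 FPKM in summer and 21.1, 17.6 and 16.3 in winter (log2 fold change 4.52 ± 0.52, adjusted p = 1.54e-08), and at E-L 36 it had 53.7 to 56.5 in winter and 27.4 to 41.0 in summer. The most abundant member without a call, *VviACO2* (VIT_212s0059g01380), had a mean of 48.0 in summer and 77.4 in winter (adjusted p = 0.0647).

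Of the 14 genes of ethylene signalling 5 were higher and 1 lower, or 2 lower without summer replicate 3. The receptor gene *VviEIN4* (VIT_206s0004g05240), a season-up gene, had 0.06, 0.12 and 0.11 FPKM in summer and 1.13, 1.38 and 1.24 in winter, at least 7.4-fold higher. The kinase genes *VviCTR1*, which hold the pathway off when no ethylene is bound, were higher for VIT_200s0684g00010 (1.14, 2.59 and 2.30 in summer and 8.16, 4.97 and 7.56 in winter) and VIT_218s0001g07700 (2.28, 1.53 and 1.49 in summer and 6.06, 5.66 and 5.16 in winter). Their log2 fold changes were 1.93 ± 0.34 and 1.76 ± 0.38 (adjusted p = 1.93e-05 and 0.000232). *VviSIMKK* (VIT_211s0016g01770) had 30.9, 27.7 and 34.3 in summer and 9.08, 9.77 and 8.84 in winter (log2 fold change −1.71 ± 0.09, adjusted p = 1.88e-14), and its model overlaps another gene. An abundant *VviERF1/2* (VIT_202s0234g00130) had a mean of 82.8 in summer and 53.8 in winter (adjusted p = 0.192).

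In auxin synthesis and transport 5 of 13 genes were higher and 1 lower (2 lower without summer replicate 2 or winter replicate 3, and 0 with DESeq2 or in a fit of the 6 libraries alone). *VviTAR1* (VIT_200s0225g00230, on an unplaced scaffold), a tryptophan aminotransferase of the first step of auxin synthesis, had 8.63, 9.58 and 7.19 FPKM in summer and 334, 341 and 336 in winter. The groups lay far apart (log2 fold change 5.37 ± 0.80, adjusted p = 1.47e-06), although winter berries at E-L 36 had 29.9 to 68.0, and “CS” at E-L 38 had a log2 fold change of −0.23. The difference between the cultivars was 5.60 (adjusted p = 0.000169), and all 6 libraries had fractional counts of this gene. The carrier genes *VviAUX1* had 4 of 6 members higher, among them VIT_213s0067g00330 with 1.81, 2.38 and 1.14 in summer and 11.4, 11.5 and 13.3 in winter (log2 fold change 2.82 ± 0.21, adjusted p = 3.15e-12) and VIT_203s0038g02140 with 1.07, 0.63 and 0.73 in summer and 4.16, 5.02 and 4.16 in winter (log2 fold change 2.51 ± 0.45, adjusted p = 1.93e-05). *VviTAR3* (VIT_218s0157g00090), a ripening-down gene of low level, had 0.34 to 0.48 in summer and 0.06 to 0.07 in winter, at least 2.2-fold lower, a call that was lost with DESeq2 (adjusted p = 0.0102) and limma (adjusted p = 0.0609). *VviYUCCA* (VIT_207s0104g01250) had a mean of 84.8 in summer and 41.8 in winter, with a log2 fold change of −0.96 that passed the fold limit without summer replicate 2 (−1.03) or winter replicate 3 (−1.01).

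In auxin signalling and response, 10 of 38 genes were higher and 14 lower, against 11.8% and 16.1% of all genes, with a median log2 fold change of −0.22. The *VviAUX/IAA* repressors were divided, 4 higher and 4 lower of 11. The ripening-up VIT_205s0020g01070 had 0.26, 0.00 and 0.08 FPKM in summer and 7.45, 7.98 and 10.0 in winter, at least 28.1-fold higher, and VIT_214s0030g02310, of no class, had 2.00, 1.07 and 2.10 in summer and 29.8, 34.0 and 35.1 in winter (log2 fold change 4.32 ± 0.36, adjusted p = 4.77e-11). The latter had 0.66 to 1.78 in winter at E-L 36, so that its high level was found in winter at E-L 38 and not at the matched index. The season-down VIT_211s0016g03540 had 53.9, 55.9 and 45.9 in summer and 12.7, 11.3 and 11.7 in winter (log2 fold change −2.07 ± 0.19, adjusted p = 2.21e-10), and its winter level at E-L 36 reached at most 12.8. The most abundant, VIT_209s0002g05150, had 425, 404 and 396 in summer and 372, 389 and 417 in winter (adjusted p = 0.981). Of the genes that auxin induces, a season-up *VviSAUR* (VIT_209s0002g00650) had 0.00 to 0.12 in summer and 2.79 to 6.22 in winter, at least 12.7-fold higher. *VviGH3* (VIT_219s0014g04690), which links auxin to amino acids, had 0.00 to 0.03 and 0.67 to 1.22, at least 9.1-fold higher, in a model that overlaps another gene. Their families were divided: 3 of 10 *VviSAUR* genes were higher and 4 lower, and 1 of 5 *VviGH3* genes was higher and 1 lower. Of the 10 *VviARF* genes, transcription factors of the response, 5 were lower and 2 higher.

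Most genes of the season classes have no name in the sources used here. The widest season-up gaps among those with a mean of at least 10 FPKM were those of VIT_209s0018g01490 (9:18596300-18599088), with 0.37, 0.33 and 0.18 in summer and 88.3, 83.8 and 80.5 in winter, and of VIT_208s0058g01220 (8:10709884-10714240), with 0.00, 0.00 and 0.27 in summer and 21.8, 28.7 and 23.4 in winter. Among season-down genes they were those of VIT_218s0001g11830 (18:10100593-10101408), with 93.9, 89.1 and 119 in summer and 0.62, 1.12 and 1.22 in winter, and of VIT_213s0019g04140 (13:5428686-5431776), with 75.9, 74.6 and 43.2 in summer and 0.91, 0.47 and 0.71 in winter. VIT_209s0018g01490, VIT_218s0001g11830 and VIT_213s0019g04140 had log2 fold changes of 8.21 ± 0.66, −6.61 ± 0.46 and −6.47 ± 0.40 (adjusted p = 2.15e-11, 1.46e-12 and 1.88e-13). VIT_208s0058g01220, whose model overlaps another gene, was at least 29.1-fold higher. At E-L 36 VIT_209s0018g01490 had 3.48 to 5.96 in winter and 1.80 to 11.9 in summer, so that of these 4 groups the winter berries at E-L 38 stood apart. VIT_218s0001g11830 had 2.41 to 3.33 in winter and 10.3 to 18.9 in summer there, and the summer berries labelled E-L 38 stood apart.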

How the data were processed

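RNA-seq reads of 50 bases were aligned by the authors to the grapevine genome 12X V2, with Bowtie named in the submitters' processing notes; the program that counted them and whether it used strand are not given in the sources used here. As deposited, each library lists for each gene an expected count (an estimate without normalization, fractional where reads are shared) and an FPKM, which the authors scaled to transcript length and library depth. A table of 36 numbered columns, which name no library, was not used.

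Expected counts were rounded, and genes missing from a library were set to 0. Of 28441 genes listed, 20183 passed filterByExpr and were tested in 1 quasi-likelihood fit of all 36 libraries in 12 conditions (edgeR 4.0.16, R 4.3.3, TMM), with p-values adjusted over all genes tested. The SE is the log2 fold change divided by the root of F. A difference between cultivars is the interaction term of this fit. Fold changes of genes with at most 3 counts in each library of a group are lower bounds against 3 counts a library, for counting error only. The ripening index used log2 CPM with a prior count of 2. P-values of the fit rest on the spread between replicate libraries, 3 a group, pooled over all 12 conditions. Those of the permutation tests rest on the libraries compared alone. Alternatives were DESeq2 1.42.0, limma 3.58.1 on log2(FPKM + 1), other size factors, no filter, the 6 libraries alone, a replicate block, other limits and classes, and 1 library left out. The rest ran in Python 3.11.15 with pandas 2.3.3, numpy 2.4.6, matplotlib 3.10.9 and scipy 1.17.1.

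The comparison, the classes and the lists were chosen with earlier results of these data known. Gene names and lists come from the tables and text of the paper; 0 of the files' identifiers were found in the table of gene names at hand, and 4 of the 216 list genes were not tested. In each list the text names up to 4 called genes with the largest change whose groups do not overlap and the most abundant gene without a call; in each class, up to 4 named called genes of at least 10 FPKM; and 2 genes without a name in each direction. Markers of seeds and other tissues could not be checked, since the identifiers carry no product names here. In bulk RNA, fewer cells of a type and less RNA per cell cannot be told apart.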

Additional observations from a re-analysis of the deposited data

Results flagged for a closer look

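The season effect at E-L 38 differed between “Riesling” and “CS” for 2701 genes (13.4% of those tested) and between E-L 38 and E-L 36 within “Riesling” for 8234 genes (40.8%), by the interaction term of the edgeR fit at an adjusted p of at most 0.01. The share that differed between the cultivars was 31.9% of the ripening-up, 25.8% of the ripening-down, 17.9% of the season-up and 19.4% of the season-down genes. The following values are differences of log2 fold changes, “Riesling” minus “CS”, for the named genes that passed this test.

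Among flavonoid regulators the difference was 7.89 for *VviMYBA1* (VIT_202s0033g00380), 5.65 for *VviMYBA2*, 4.80 for *VviMYBA3* and −0.66 for *VviMYB4a*. Among flavonoid enzymes it was −5.36 for *VviDFR* VIT_215s0048g01000, −1.36 for *VviDFR* VIT_219s0014g04980, −2.70 for *VviF3′H* VIT_203s0063g01690, −2.68 for *VviLAR2*, 1.86 for *VviFLS5* and 1.25 for *VviCHI*. *VviCOP1-1* of the UV-B pathway had 0.66.

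Among hormone genes, those of abscisic acid had −3.44 (*VviNCED3*), −2.00 (abscisic aldehyde oxidase) and −1.59 (*VviSnRK2* VIT_207s0031g03210), and those of ethylene had −6.59 (*VviACS2*), 1.79 (*VviCTR1* VIT_200s0684g00010) and −0.64 (*VviSIMKK*). Those of auxin had 5.60 (*VviTAR1*), 4.69 (*VviAUX/IAA* VIT_205s0020g01070), 4.00 (*VviAUX/IAA* VIT_214s0030g02310), 1.14 (*VviAUX/IAA* VIT_211s0016g03540), and 3.30 and 2.27 (*VviAUX1* VIT_213s0067g00330 and VIT_203s0038g02140). The genes without a name had 6.31 (VIT_209s0018g01490), 5.24 (VIT_208s0058g01220) and −5.69 (VIT_218s0001g11830). Where every “Riesling” summer library labelled E-L 38 had at most 3 counts of a gene, as for *VviMYBA1* and *VviMYBA3*, the fitted difference depends on the prior count.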

How the results depend on the processing

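No call at E-L 38 reversed under any fit; 72.8% (limma on log2(FPKM + 1)) to 99.5% (median-ratio size factors) of the 5626 called genes were called in the same direction, and 77.7% in all 6 fits that left out 1 library. Leaving out 1 library gave 2157 to 2297 genes higher and 2977 to 3152 lower. With the limit on the adjusted p at 0.05 and none on the fold, 5831 were higher and 6247 lower; glmTreat against a fold of 2 gave 1071 and 1698, and limma gave 1549 higher. Classes chosen from “CS” summer alone lowered the ripening index gap from 2.25 to 1.35 and the share of ripening-up genes higher in winter from 51.3% to 31.8%. For genes called at both “Riesling” stages limma gave 117 higher at both, 85 lower at E-L 38 and higher at E-L 36, and 48 the reverse, and fits of the 6 libraries of each stage alone gave 69 lower at both and 39 higher at E-L 38 and lower at E-L 36. The index gap was 2.20 to 2.29, the log2 ratio of summed VviSTS 2.02 to 2.61 and that of summed VviPAL 1.66 to 2.05 with 1 library left out. Called stilbene synthases were 1 in the fit of all libraries, 6 with DESeq2 and 12 with the 6 libraries alone, and called phenylpropanoid genes that were higher were 7, 12 and 15. With limma the calls of abscisic aldehyde oxidase and VviGH3 were lost too. Same-numbered winter and summer libraries did not deviate together (r of 0.011, −0.007 and −0.007 over 16986 genes), so the numbers do not pair them; with a replicate block 2360 genes were higher and 3192 lower, and 6 stilbene synthases were called.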

Other observations

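Over all 3 stages of “Riesling”, 79 genes were higher in winter at each stage and 28 were lower, of 20183 tested. Season genes required at all 3 “CS” stages were fewer and more often called at “Riesling” E-L 38: 133 of 166 season-up genes were higher and 130 of 153 season-down genes were lower, with median log2 fold changes of 2.69 and −2.40. Of all genes, 11.8% were higher and 16.1% lower there.

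The most abundant transcript of the winter libraries was VIT_205s0049g00520, which has no name here. It held 5.33% to 5.93% of all expected counts in winter and was the most abundant in 2 of the 3 summer libraries, with 2.27% and 2.31%.

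Among the 11 ripening-up genes that were lower and the 49 ripening-down genes that were higher in winter, against the ripeness gap, 2 and 22 had the same call at E-L 36.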
